A study of Mus musculus with 4 samples.

Results

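The genes described here are 7 cyclin-dependent kinase (CDK) inhibitors and 3 kinases of the G1 phase of the cell cycle, 10 of the 55335 rows of an RNA-seq table of sorted mouse stomach cells. They were taken by name: the Cip/Kip inhibitors Cdkn1a, Cdkn1b and Cdkn1c, the INK4 inhibitors Cdkn2b, Cdkn2c and Cdkn2d, the phosphatase gene Cdkn3, and the kinases Cdk2, Cdk4 and Cdk6. All 10 have a row in the table. On GRCm38 (GENCODE vM21, strand in brackets) the Cip/Kip genes are Cdkn1a at chr17:29090976-29100727 (+), Cdkn1b at chr6:134920401-134925513 (+) and Cdkn1c at chr7:143458339-143461050 (−). The INK4 genes are Cdkn2b at chr4:89306299-89311039 (−), Cdkn2c at chr4:109660876-109667189 (−) and Cdkn2d at chr9:21288410-21291407 (−). The phosphatase gene is Cdkn3 at chr14:46760541-46771669 (+), and the kinases are Cdk2 at chr10:128697939-128705031 (−), Cdk4 at chr10:127063534-127067920 (+) and Cdk6 at chr5:3341485-3531008 (+). SMART-Seq2 libraries, in which RNA of few cells is copied to full-length cDNA and amplified by PCR, were made from living EpCAM+ epithelial cells of the stomach corpus. IQ3pos cells were sorted as Iqgap3 high, and IQ3neg cells as Iqgap3 low or negative. Both fractions came from C57BL/6 mice of the genotype Iqgap3-2A-tdTomato, aged 6 to 8 weeks, with no treatment given in the labels, so both carry the reporter allele that ties a red fluorescent protein to Iqgap3. Each fraction has 2 libraries. IQ3pos_1909A and IQ3neg_1909B were each made from 3 pooled mice, and IQ3pos_1910A and IQ3neg_1910B from 4, and values are given in that order, the pool of 3 mice before the pool of 4. The labels do not say whether pools of the same size share their mice, and the spread between 2 pools may be in part technical.

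As background, D-type cyclins bind Cdk4 or Cdk6 early in G1, and cyclin E binds Cdk2 near the start of S phase. These kinases phosphorylate the retinoblastoma family of pocket proteins, which releases E2F transcription factors. INK4 proteins bind Cdk4 and Cdk6 and keep D cyclins off them, whereas Cip/Kip proteins bind whole cyclin and kinase complexes and block Cdk2 above all. In the corpus, cells divide mainly in the isthmus of the gland, and most pit, parietal, chief and endocrine cells have left the cycle.

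Promoters of Cdkn3, Cdk4 and Cdk2 are shown first, chosen after the motif search for their repeated CCAAT boxes, repeated E-boxes and E2F site, to set them beside the levels that follow. The windows are the 250 bases before the RefSeq gene start (GRCm38.p6), 5′ to 3′ on the strand of the gene. Capitals mark CCAAT (the CCAAT box), TTTGAA (the CHR element of genes of late cell cycle), TTTCCCGC or TTTGGCGC (2 forms of an E2F site), TATAAA (the TATA box) and CACGTG (the E-box read by MYC and related factors), each on either strand. CACGTG was added to the search after the Cdk4 sequence had been seen.
Cdkn3, chr14:46760291-46760540, + strand: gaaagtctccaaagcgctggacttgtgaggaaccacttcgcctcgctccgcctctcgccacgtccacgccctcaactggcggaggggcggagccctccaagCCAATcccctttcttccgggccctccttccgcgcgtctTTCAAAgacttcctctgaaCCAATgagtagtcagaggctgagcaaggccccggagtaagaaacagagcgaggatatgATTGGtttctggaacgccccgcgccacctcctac
Cdk4, chr10:127063285-127063534, + strand: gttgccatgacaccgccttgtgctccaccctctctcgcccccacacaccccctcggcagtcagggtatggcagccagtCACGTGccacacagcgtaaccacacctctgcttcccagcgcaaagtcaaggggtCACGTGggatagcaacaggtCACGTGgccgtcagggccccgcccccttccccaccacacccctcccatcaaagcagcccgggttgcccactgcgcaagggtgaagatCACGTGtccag
Cdk2, chr10:128705052-128705301, − strand: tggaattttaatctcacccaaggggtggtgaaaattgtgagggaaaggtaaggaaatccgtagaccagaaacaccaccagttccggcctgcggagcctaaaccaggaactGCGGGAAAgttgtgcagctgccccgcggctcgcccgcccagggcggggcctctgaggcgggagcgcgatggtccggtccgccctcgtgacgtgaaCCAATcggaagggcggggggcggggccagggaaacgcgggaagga

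The Cdkn3 window holds CCAAT at 3 places, from bases −149, −92 and −34 before the start, and TTTGAA at −111 on the opposite strand. Of 32851 such windows in the RefSeq table, 33.8% hold CCAAT at least once, 2.79% hold it at 3 or more places, and 0.381% (125 windows) hold it so often together with TTTGAA. The Cdk4 window holds CACGTG at 4 places, from −172, −118, −98 and −11, a number that 7 windows in the whole table reach, whereas 6.02% hold CACGTG at least once. As CACGTG was picked from this very window, its rarity elsewhere is a description and carries no weight as a test. The Cdk2 window holds TTTCCCGC at −140, on the opposite strand, which 0.895% of windows share, and CCAAT at −45. The CCAAT box was also found in the windows of Cdkn1b (2 places) and Cdkn2d (1 place), TTTGAA in that of Cdkn2b, and TATAAA and CACGTG once each in that of Cdk6. No match was found in the 2 windows each of Cdkn1a and Cdkn2c, and TTTGGCGC was found in no member. Matches are letters only and do not show that a factor binds.

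Depth and composition touch all of the levels below. The libraries held 90714929 to 418401262 reads in genes, so counting error mattered only for members with few reads. Iqgap3 itself, the gene behind the sort, stood at 0.220 and 9.32 CPM in IQ3pos, against 0.0435 and 0.452 CPM in IQ3neg, so IQ3pos_1909A lay below IQ3neg_1910B. Values are CPM, counts per 1000000 reads in genes, and thus shares of a library. The 20 most abundant genes took 25.3% and 18.5% of IQ3pos reads and 63.4% and 57.9% of IQ3neg reads, and the median of 13019 tested genes was 0.68 higher in IQ3pos on the log2(CPM + 1) scale. After TMM scaling, which sets libraries to a common level of their middle genes, that median was 0.04. In IQ3neg_1909B 5.97% of tested genes stood at 0, against 2.73% to 4.00% in the other libraries. Tested or not, 29724 and 30017 genes were above 0 in IQ3pos, against 21757 and 21823 in IQ3neg, although IQ3neg_1910B was the deepest library. The cause was not tested. Fewer cells of a type and less RNA per cell cannot be told apart in such sorted bulk samples.

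Most members stood higher in IQ3pos. Of the 10, 8 had both IQ3pos libraries above both IQ3neg libraries in CPM, an order that 40.9% of all tested genes showed, and 0 had the opposite order, which 14.2% showed. With TMM-scaled CPM 7 were above, beside 24.7% of all genes, and Cdkn1a and Cdkn1c were below, beside 23% of all genes. With the factors of DESeq2 in place of TMM 5 were above (23.6% of all genes), as Cdk2 and Cdk4 then overlapped, and the same 2 were below (23.3% of all genes). The median log2 difference of the members was 1.82, against 0.68 for all tested genes. None passed limma at an adjusted p of 0.05 (0 higher, 0 lower, and 0% of all tested genes in each direction). At an unadjusted p under 0.05, 7 members were higher and 0 lower, where 18.2% and 4.98% of all genes were. With TMM-scaled CPM limma called 0 members in either direction (0.0461% of all genes higher, 0.184% lower), and Cdkn3 and Cdk6 had an unadjusted p under 0.05 (7.63% of all genes higher, 8.32% lower). On the recovered reads, edgeR with TMM called 0 members (0.307% of all genes higher, 0.614% lower). Both edgeR with library size only (3.53% of all genes higher, 0.707% lower) and DESeq2 (5.45% higher, 8.3% lower) called Cdkn3 and Cdk6 as higher and 0 as lower. So did limma with a pseudocount of 5 (1.84% of all genes higher) or a minimum mean of 5 CPM (7.83% higher).

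**Figure D1:**
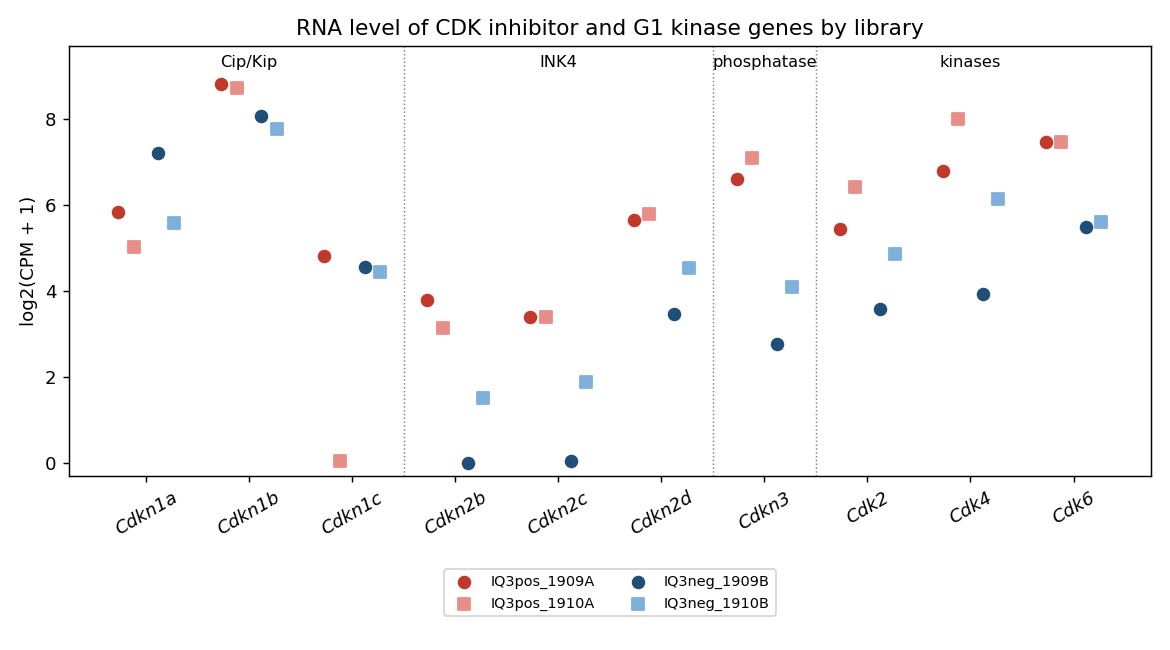
Level of each member in each library as log2(CPM + 1), IQ3pos in red and IQ3neg in blue, circles for the pools of 3 mice and squares for the pools of 4 mice. The red points lie above the blue ones for 8 genes, and Cdkn1a and Cdkn1c are the exceptions.

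Among the Cip/Kip inhibitors the 3 genes had 3 different patterns. Cdkn1b encodes p27, which holds cyclin E and Cdk2 inactive in resting cells. It was the most abundant member in CPM per kb of exon in all 4 libraries, at 450 and 419 CPM in IQ3pos, against 269 and 217 CPM in IQ3neg. The groups did not overlap in CPM. The log2 difference was 0.85 (SE 0.27, limma adjusted p = 0.149), or 0.17 above the median of all genes. With TMM scaling the groups overlapped and the log2 difference was 0.08 (SE 0.30), and it was −0.14 in CPM without the 20 most abundant genes, so no direction relative to other genes was resolved for Cdkn1b.

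Cdkn1a encodes p21, the inhibitor that p53 induces after DNA damage and that also accompanies exit from the cycle. It stood at 56.6 and 31.6 CPM in IQ3pos, against 147 and 47.0 CPM in IQ3neg. In CPM the groups overlapped, since IQ3pos_1909A lay above IQ3neg_1910B, although within each pool size IQ3neg was the higher one. The log2 difference was −0.96 (SE 0.65, limma adjusted p = 0.441), or −1.63 relative to all genes, and −0.15 without IQ3neg_1909B. With TMM-scaled CPM both IQ3pos libraries (45.0 and 23.4) lay below both IQ3neg libraries (213 and 55.0), and the log2 difference was −1.71 (SE 0.71, limma adjusted p = 0.318).

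Cdkn1c encodes p57, an imprinted inhibitor known from differentiating tissues. It stood at 27.3 and 0.0358 CPM in IQ3pos, against 22.7 and 20.7 CPM in IQ3neg. Thus 3 libraries held it at a like level, and IQ3pos_1910A alone was near 0, with 10 reads of 279125309 (exact Poisson 95% interval 0.0172 to 0.0659 CPM, counting error only). The log2 difference of −2.07 (SE 1.60, limma adjusted p = 0.485) rested on that library and was 0.32 without it. In the pools of 3 mice it was 0.25, and in the pools of 4 mice it was −4.39.

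For all 3 INK4 inhibitors the IQ3pos libraries lay above the IQ3neg libraries, in CPM and under each of the 3 other scalings. Cdkn2d encodes p19 of the INK4 family and was the most abundant of them in every library. It stood at 49.1 and 54.8 CPM in IQ3pos, against 10.1 and 22.2 CPM in IQ3neg. Its log2 difference was 1.72 (SE 0.57, limma adjusted p = 0.160), or 1.04 above all genes, and 0.99 with TMM scaling. Cdkn2c encodes p18, an inhibitor that dividing and differentiating cells both use. It stood at 9.48 and 9.50 CPM in IQ3pos, against 0.0348 and 2.73 CPM in IQ3neg. The IQ3pos libraries were nearly equal, whereas IQ3neg_1909B held 4 reads of Cdkn2c and IQ3neg_1910B held 1141. The log2 difference was 2.42 (SE 1.08, limma adjusted p = 0.250).

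Cdkn2b encodes p15, the INK4 member that TGF-beta induces. It stood at 12.8 and 7.89 CPM in IQ3pos, against 0 and 1.86 CPM in IQ3neg. In IQ3neg_1909B it had 0 of 115016307 reads, where a floor of 3 reads is 0.0261 CPM. IQ3pos_1909A stood 491.5-fold above that floor of IQ3neg_1909B. This fold is no lower bound, since the exact Poisson 95% limit for 0 reads is higher than the floor, at 0.0321 CPM. IQ3pos_1910A was 4.24-fold higher than IQ3neg_1910B. The log2 difference over both was 2.71 (SE 1.05, limma adjusted p = 0.203). IQ3neg_1909B, the library with the most genes at 0, was thus the lowest for Cdkn2b and Cdkn2c, and without it their log2 differences were 1.95 and 1.49. The part of its missing genes in these values was not tested.

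Cdkn3 encodes a phosphatase that takes the activating phosphate off Cdk2 once its cyclin is gone, and in human cells its RNA is highest in late cycle. It had the largest log2 difference of the members on log2(CPM + 1) with all genes kept in the CPM. At a pseudocount of 0.1 both Cdkn2b (4.52) and Cdkn2c (3.96) were larger than Cdkn3 (3.55). Cdkn2b was also larger with DESeq2 (2.96, against 2.72) and without the 20 most abundant genes (2.58, against 2.53). Cdkn3 stood at 96.2 and 137 CPM in IQ3pos, against 5.83 and 16.0 CPM in IQ3neg. IQ3pos was 16.5-fold higher in the pools of 3 mice and 8.54-fold higher in the pools of 4 mice. The log2 difference was 3.42 (SE 0.61, limma adjusted p = 0.0659), larger than that of 98.8% of all tested genes and 2.75 above their median. With TMM-scaled CPM it was 2.701 (SE 0.54, limma adjusted p = 0.135). Its promoter is the one shown above with 3 CCAAT boxes and a CHR element.

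The 3 kinases were all higher in both IQ3pos libraries in CPM and with TMM scaling. Cdk6 was the most even of them. It stood at 176 and 175 CPM in IQ3pos, against 44.2 and 47.3 CPM in IQ3neg, which is 3.97-fold in the pools of 3 mice and 3.69-fold in the pools of 4 mice. The log2 difference was 1.91 (SE 0.32, limma adjusted p = 0.0659), or 1.24 above all genes, and 1.16 (SE 0.32, limma adjusted p = 0.210) with TMM scaling. Its groups did not overlap under any of the scalings tried.

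Cdk4 was more variable, at 110 and 254 CPM in IQ3pos, against 14.3 and 69.3 CPM in IQ3neg. In each fraction the pool of 4 mice was above the pool of 3 mice. The log2 difference was 2.36 (SE 0.82, limma adjusted p = 0.175), 2.86 in the pools of 3 mice and 1.86 in the pools of 4 mice. Cdk4 shares exon bases with Tspan31 on the other strand, which stood at 112 and 75.4 CPM in IQ3pos and 62.8 and 59.4 CPM in IQ3neg, and reads of the pair cannot be told apart if strand was not used. Cdk2 stood at 42.4 and 84.6 CPM in IQ3pos, against 11.0 and 28.1 CPM in IQ3neg. Again the pools of 4 mice were the higher ones, and the log2 difference was 1.71 (SE 0.66, limma adjusted p = 0.200). It was 0.97 with TMM scaling and 1.06 without IQ3neg_1909B. Pmel, which overlaps Cdk2 on the other strand, reached at most 2.99 CPM. With the DESeq2 factors or without the 20 most abundant genes, the groups overlapped for both Cdk2 and Cdk4, while the differences stayed positive.

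**Figure D2:**
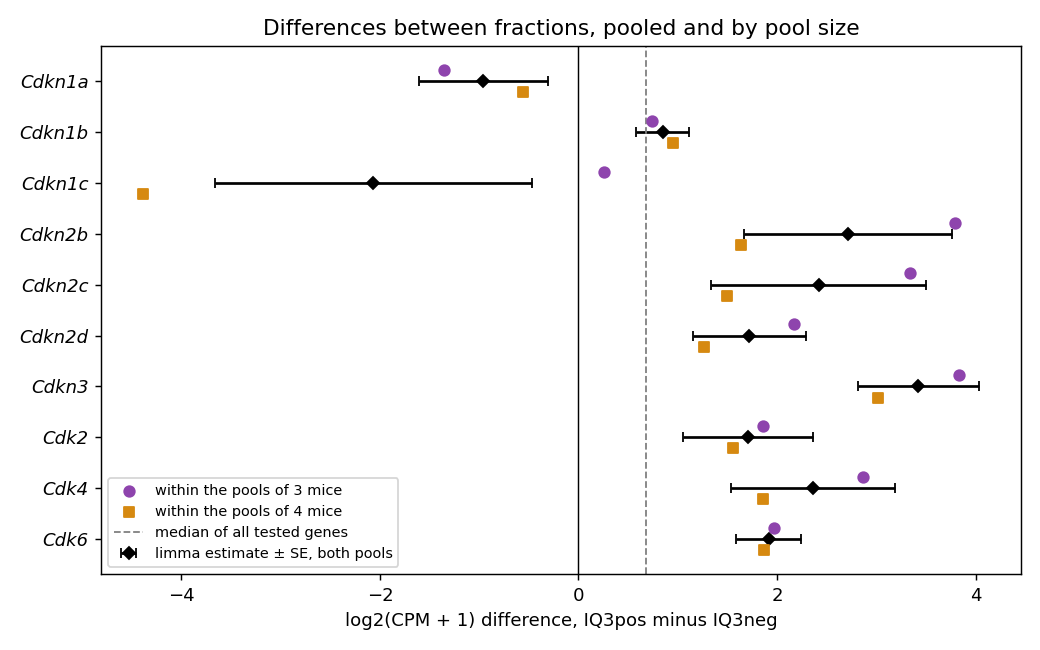
Difference IQ3pos minus IQ3neg on the log2(CPM + 1) scale, as limma's estimate ± SE (diamonds, 2 libraries per fraction) and within the pools of 3 mice (circles) and of 4 mice (squares), with the median of all tested genes as a dashed line at 0.68. Cdkn3 lies farthest to the right at 3.42, and the points of Cdkn1c lie on both sides of 0, at 0.25 and −4.39.

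Levels between genes were compared per kb of exon. In IQ3pos Cdkn1b led at 95.5 ± 4.82 CPM per kb (SD, n = 2 throughout), followed by Cdk4 (56.0 ± 31.3), Cdkn3 (49.1 ± 12.1) and Cdkn2d (33.0 ± 2.55). Next came Cdk6 (12.5 ± 0.0349), Cdkn1a (12.4 ± 4.98) and Cdk2 (10.2 ± 4.80), and then Cdkn2b (7.45 ± 2.51), Cdkn1c (6.70 ± 9.45) and Cdkn2c (3.53 ± 0.00644). Cdk4 and Cdkn3 lay within their spread of each other, as did each pair of neighbours among the 6 genes from Cdk6 down, whereas Cdkn2d stood apart from both Cdkn3 and Cdk6 by more than their SDs. In IQ3neg Cdkn1b also led at 53.3 ± 8.08. By mean level Cdkn1a came after it at 27.3 ± 19.8, but this place rested on IQ3neg_1909B. In IQ3neg_1910B Cdkn1a lay below Cdk4 (47.0 against 69.3 CPM, over 3553 and 3249 exon bases). Cdk4 (12.9 ± 12.0), Cdkn1c (10.6 ± 0.705) and Cdkn2d (10.3 ± 5.45) came next by mean level and lay within the spread of their neighbours. Cdkn3 (4.60 ± 3.03), Cdk6 (3.27 ± 0.158), Cdk2 (3.14 ± 1.95), Cdkn2b (0.669 ± 0.946) and Cdkn2c (0.514 ± 0.709) followed. Cdkn3, Cdk6 and Cdk2 lay within their spread of each other, as did Cdkn2b and Cdkn2c. By mean level Cdkn3 was thus the third in IQ3pos and the sixth in IQ3neg. In both fractions it lay within the spread of a neighbour, so its exact rank was not resolved.

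The make-up of each family differed accordingly. Cdkn1b made up 77.1% and 91.2% of the Cip/Kip sum in IQ3pos, against 52.96% and 67.1% in IQ3neg, all per kb. Cdkn1a made up 12.4% and 8.81% in the same IQ3pos libraries, against 37.0% and 18.7% in IQ3neg. Neither share overlapped between the fractions, and neither is touched by library composition. Both are parts of the same sum and so are not independent. The shares were not tested, and with 2 libraries per fraction no two-sided exact permutation p below 0.333 is possible. Of the INK4 sum, Cdkn2d held 71.0% and 79.1% in IQ3pos, against 99.8% and 85.7% in IQ3neg, so that Cdkn2b and Cdkn2c together held more of it in both IQ3pos libraries. Of the sum of Cdk4 and Cdk6, Cdk4 held 72.9% and 86.2% in IQ3pos and 58.1% and 86.3% in IQ3neg, where the groups overlapped.

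**Figure D3:**
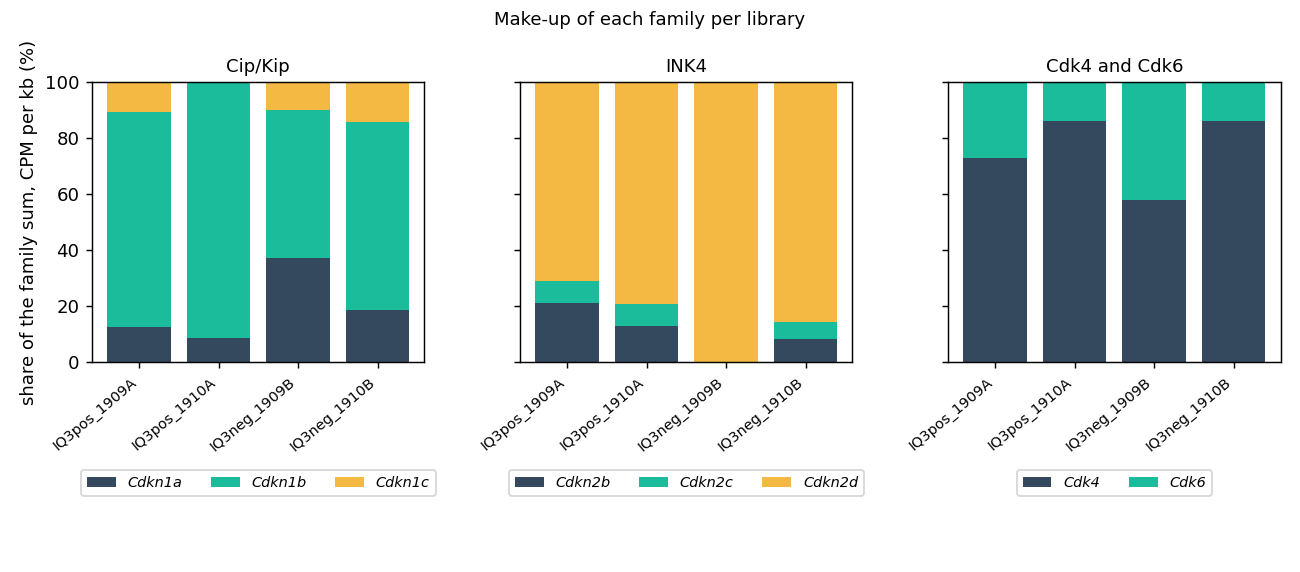
Share of each gene in the sum of its family, from CPM per kb of exon, in percent, with the IQ3pos libraries left of the IQ3neg libraries in each panel. Cdkn1b fills 77.1% and 91.2% of the Cip/Kip bars in IQ3pos and 52.96% and 67.1% in IQ3neg, and Cdkn2d fills nearly the whole INK4 bar in IQ3neg_1909B.

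Ratios of inhibitors to kinases, taken within each library from CPM per kb, are free of the shift in composition. With 2 libraries per fraction, an exact permutation test cannot give a two-sided p below 0.333. Cdkn3 over Cdk2 was 5.95 and 4.24 in IQ3pos, against 1.39 and 1.49 in IQ3neg. Its mean log2 value was 2.33 ± 0.35 for IQ3pos and 0.53 ± 0.071 for IQ3neg (SD over 2 libraries), which differ by 1.80 (exact permutation p = 0.333, the smallest possible). It was the 1 ratio of 4 whose groups did not overlap. Any ratio that separates the fractions has an exact permutation p = 0.333, so 1 of 4 is no more than chance can give. The difference of Cdkn3 over Cdk2 was larger than the SD of either fraction, each of which rests on 2 libraries.

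The Cip/Kip sum over Cdk2 was 18.8 and 7.43 in IQ3pos, against 63.1 and 15.7 in IQ3neg. It was lower in IQ3pos within each pool size, but the groups overlapped (log2 difference −1.41, exact permutation p = 0.667). It was −0.41 without IQ3neg_1909B. The INK4 sum over Cdk4 plus Cdk6 was 0.948 and 0.486 in IQ3pos, against 0.852 and 0.667 in IQ3neg, and the groups overlapped (log2 difference −0.15, exact permutation p = 1). Inhibitors and kinases of this pair were thus both higher in IQ3pos in CPM with a ratio that did not differ beyond the spread. Cdk6 over Cdk4 was 0.371 and 0.160 in IQ3pos, against 0.721 and 0.159 in IQ3neg, and was near equal in the pools of 4 mice (log2 difference −0.47, exact permutation p = 1). It was 0.62 without IQ3neg_1909B.

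**Figure D4:**
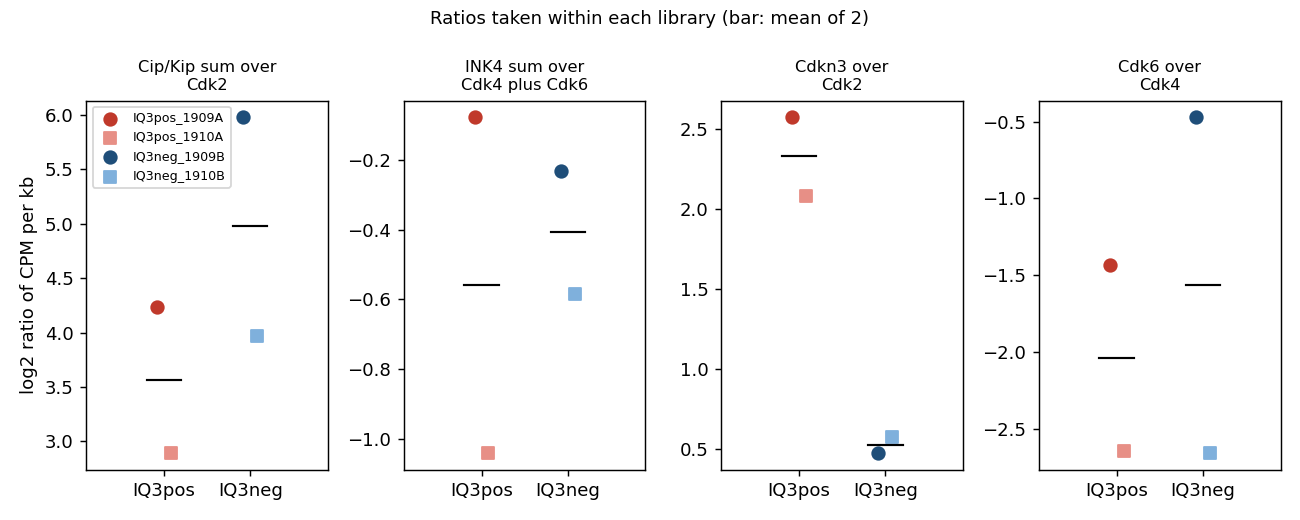
Log2 ratios of CPM per kb within each library, IQ3pos left and IQ3neg right, with a bar at the mean of 2 libraries. Cdkn3 over Cdk2 separates the fractions, at 2.33 against 0.53 on average, and the points of the other 3 ratios overlap.

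The other genes of the pathway were counted in the same way. The counts of the lists stand beside 40.9% of all tested genes above and 14.2% below in CPM, and 24.7% above and 23% below with TMM scaling. Of 6 G1 cyclin genes, including cyclin A, 4 were higher in both IQ3pos libraries and 0 lower, and 0 passed limma (3 higher and 0 lower at an unadjusted p under 0.05). The TMM-scaled counts were 3 higher and 1 lower. The cyclin genes had a median log2 difference of 1.83, against 0.68 over all tested genes. Those that pair with Cdk2 had the largest differences. Ccne1, cyclin E1, stood at 11.4 and 51.4 CPM in IQ3pos, against 0 and 0.00478 CPM in IQ3neg (log2 difference 4.67, SE 1.11, limma adjusted p = 0.0936). Ccna2, cyclin A2 of S phase and G2, stood at 57.1 and 166 CPM in IQ3pos, against 4.02 and 14.1 CPM in IQ3neg. Ccnd2, a D cyclin and thus a partner of Cdk4 and Cdk6, stood at 170 and 192 CPM in IQ3pos, against 146 and 178 CPM in IQ3neg. Its groups overlapped in CPM, with a log2 difference of 0.16 (SE 0.30), whereas with TMM scaling both IQ3pos libraries lay below both IQ3neg libraries, with a log2 difference of −0.60.

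Genes that activate the kinases or serve the breakdown of inhibitors were mostly higher in CPM. Of 11, 9 were higher in both IQ3pos libraries and 0 lower, 0 passed limma (6 higher and 0 lower at an unadjusted p under 0.05), and the median log2 difference was 1.16. With TMM scaling 6 were higher and 1 lower. Cks1b, a cofactor of the ubiquitin ligase that marks p27, stood at 119 and 173 CPM in IQ3pos, against 7.77 and 27.6 CPM in IQ3neg (log2 difference 3.19, SE 0.66, limma adjusted p = 0.0764). Cdk7, the kinase that activates other CDKs, stood at 82.4 and 108 CPM in IQ3pos, against 17.5 and 36.4 CPM in IQ3neg. Rbx1 and Skp1a encode subunits of such ligases. Rbx1 stood at 309 and 302 CPM in IQ3pos, against 151 and 160 CPM in IQ3neg. Skp1a stood at 275 and 277 CPM in IQ3pos, against 110 and 150 CPM in IQ3neg.

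Of 13 pocket protein and E2F genes, 10 were tested. In CPM 5 were higher in both IQ3pos libraries and 1 lower, 0 passed limma (4 higher and 0 lower at an unadjusted p under 0.05), and the median log2 difference was 1.47. The 5 of 10 above and 1 of 10 below lie near the shares of all genes. The TMM-scaled counts were 4 higher and 1 lower. Rbl1, the pocket protein p107 of cycling cells, stood at 35.6 and 51.2 CPM in IQ3pos, against 5.30 and 3.47 CPM in IQ3neg (log2 difference 3.04, SE 0.66, limma adjusted p = 0.0798). E2f5, an E2F of the repressor class, stood at 39.8 and 42.6 CPM in IQ3pos, against 3.03 and 11.1 CPM in IQ3neg. Tfdp1, a partner of E2F proteins, stood at 48.9 and 101 CPM in IQ3pos, against 18.0 and 15.1 CPM in IQ3neg, while its relative Tfdp2 overlapped at 101 and 62.9 CPM in IQ3pos and 51.2 and 67.2 CPM in IQ3neg.

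Of 11 regulators that act on the inhibitor genes, 4 were higher in both IQ3pos libraries and 1 lower, 0 passed limma (2 higher and 1 lower at an unadjusted p under 0.05), and the median log2 difference was 0.44. This is −0.24 relative to the median of all genes, but the sign is not stable, as it was 0.08 with TMM scaling and above 0 in 12 of 17 settings. The TMM-scaled counts were 3 higher and 1 lower. Klf4, a factor of differentiating epithelium that activates Cdkn1a in other tissues, stood at 118 and 93.6 CPM in IQ3pos, against 23.3 and 17.0 CPM in IQ3neg (log2 difference 2.34, SE 0.43, limma adjusted p = 0.0666). The sign of its difference was opposite to that of Cdkn1a, whose groups overlapped in CPM, and a link between the 2 genes was not tested. Smad3, a mediator of TGF-beta, stood at 0.0661 and 0.0860 CPM in IQ3pos, against 6.27 and 4.50 CPM in IQ3neg, opposite in direction to Cdkn2b. Smad4 of the same list stood at 35.5 and 25.1 CPM in IQ3pos, against 4.61 and 13.9 CPM in IQ3neg, in the direction of Cdkn2b. The Smad genes of the list thus did not share a direction, and a link of any of them to Cdkn2b was not tested. Foxo3, which activates Cdkn1b, overlapped at 180 and 86.1 CPM in IQ3pos and 133 and 88.8 CPM in IQ3neg.

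Of 23 other p53 target genes, 19 were tested. In CPM 8 were higher in both IQ3pos libraries and 4 lower, 0 passed limma (2 higher and 2 lower at an unadjusted p under 0.05), and the median log2 difference was 0.53. This is −0.15 relative to the median of all genes, against 0.04 with TMM scaling, and it was above 0 in 7 of 17 settings. With TMM scaling 3 were higher and 5 lower, and both pairs of counts lie near the shares of all genes. Btg2, an antiproliferative gene, stood at 234 and 260 CPM in IQ3pos, against 396 and 577 CPM in IQ3neg, and Trp53inp1 at 2.38 and 0.380 CPM in IQ3pos, against 22.3 and 32.9 CPM in IQ3neg. Polk, a DNA polymerase that bypasses damage, was higher, at 45.4 and 24.4 CPM in IQ3pos, against 0.0348 and 8.08 CPM in IQ3neg. Plk2 overlapped, at 133 and 62.5 CPM in IQ3pos and 57.4 and 175 CPM in IQ3neg.

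Genes of G2 and mitosis had the largest differences of the lists. Of 25, 24 were higher in both IQ3pos libraries and 0 lower, 0 passed limma (24 higher and 0 lower at an unadjusted p under 0.05), and the median log2 difference was 4.14. The TMM-scaled counts were 23 higher and 0 lower. The differences of Cdkn3 (3.42), Cdkn2b (2.71), Cdkn2c (2.42) and Cdk4 (2.36) lay within the range of that list, 2.05 to 5.89, and below its median. The differences of Cdkn1a, Cdkn1b, Cdkn1c, Cdkn2d, Cdk2 and Cdk6 lay below its lowest value. Top2a stood at 357 and 693 CPM in IQ3pos, against 28.5 and 52.4 CPM in IQ3neg, and Cdk1, the kinase of mitosis, at 164 and 487 CPM in IQ3pos, against 7.09 and 28.8 CPM in IQ3neg. The differences of Nusap1 and Tpx2 were the largest, at 5.89 (SE 1.04) and 5.49 (SE 1.42).

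**Figure D5:**
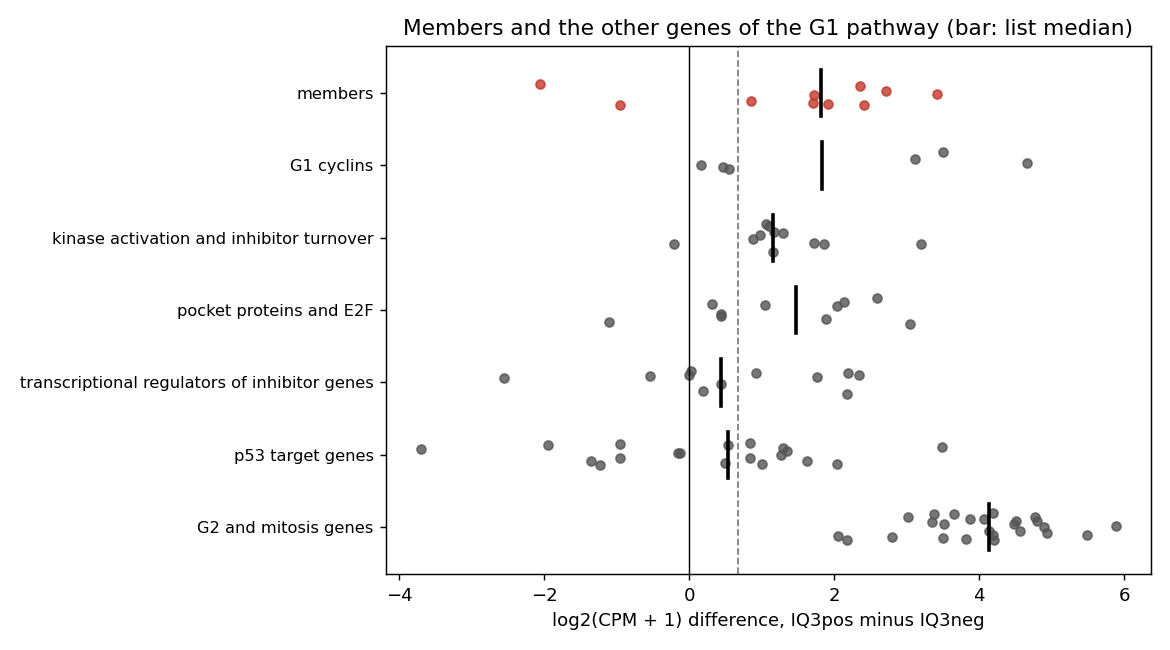
Log2(CPM + 1) differences, IQ3pos minus IQ3neg, of the 10 members (red) and of the tested genes of each pathway list (grey), with a bar at the list median and a dashed line at the median of all tested genes, 0.68. The median of the members is 1.82, and that of the G2 and mitosis genes is 4.14.

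The pathway genes most like each member over the 4 libraries were found by the Euclidean distance between log2(CPM + 1) profiles, each centred on its own mean, among pathway genes of at least 10 CPM on average. Cdkn3 lay closest to Birc5 (distance 0.29) and Cks1b (0.36), and Cdk4 closest to Myc (0.32). Cdkn2d and Cdk2 both lay closest to Cdk7 (0.22 and 0.48), Cdkn2b and Cdkn2c both to E2f5 (0.53 and 0.26), and Cdkn1b to Rbx1 (0.31). The nearest gene was Rb1 for Cdk6 (0.56) and Ei24 for Cdkn1a (0.78), whereas Cdkn1c had none closer than Foxo1 at 2.65. Profiles were centred but not scaled, so distances over 4 libraries reflect the size as well as the shape of changes, and are a description only. Myc itself stood at 36.7 and 98.5 CPM in IQ3pos, against 4.56 and 31.1 CPM in IQ3neg.

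Markers of mature cell types also differed between the fractions, alongside every comparison above. Summed chief cell markers (9 genes, 0 higher and 7 lower in both IQ3pos libraries) took 51080 and 19720 CPM in IQ3pos and 415859 and 404527 CPM in IQ3neg. Enteroendocrine markers (12 genes, 0 higher and 10 lower) took 397 and 209 CPM in IQ3pos and 17115 and 11240 CPM in IQ3neg, whereas parietal markers (9 genes, 7 higher and 1 lower) took 7843 and 7339 CPM in IQ3pos and 816 and 1512 CPM in IQ3neg. Pit markers (7 genes, 6 higher and 1 lower) took 15055 and 15529 CPM in IQ3pos and 8527 and 10256 CPM in IQ3neg. Mucous neck (4 genes, 2 higher and 0 lower) and tuft markers (8 genes, 0 higher and 3 lower) took 5254 and 8742 CPM and 606 and 155 CPM in IQ3pos, against 1230 and 2243 CPM and 436 and 1275 CPM in IQ3neg. These orders are in CPM. With TMM scaling 1 mucous neck marker was higher and 2 lower, and 0 tuft markers were higher and 7 lower. Chief markers were then 0 higher and 8 lower, parietal markers 5 higher and 1 lower, and pit and enteroendocrine counts were unchanged. Immune markers (8 genes, 1 higher and 1 lower) took 267 and 49.1 CPM in IQ3pos and 384 and 72.7 CPM in IQ3neg. Those of stroma, vessel and blood (11 genes, 2 higher and 4 lower) took 3.35 and 1.501 CPM in IQ3pos and 38.6 and 4.43 CPM in IQ3neg. No defining marker was at 0 in all 4 libraries. The part of these cell types in the values of the members was not tested.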

How the data were processed

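RNA-seq levels of 4 sorted libraries were used, 2 IQ3pos and 2 IQ3neg. Per the submitters' processing notes, the tools were STAR (2.7.1a), Subread (2.0.0) with featureCounts, and edgeR, on GRCm38/mm10, with no role or order stated. For annotation, strand setting and duplicates the sources used here state nothing. The deposited values are CPM without a composition factor. All values above 0 were whole multiples of 1 read (100% within 0.05 of a whole number), and the reads recovered in this way served the count tests. A read was worth 0.00239 to 0.0110 CPM. The reads have no molecular identifiers, and so intervals and floors (3 reads) cover counting error only.

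Limma-trend (limma 3.58.1, R 4.3.3) was run on log2(CPM + 1), IQ3pos minus IQ3neg, two-sided, over the 13019 genes whose mean reached 1 CPM, with Benjamini-Hochberg adjustment over all of them. This scale understates the change of low genes, and adjusted p-values given without a tool are limma's. All 10 members passed the filter. Alternatives were other scalings, pseudocounts (0.1 and 5), filters, edgeR 4.0.16, DESeq2 1.42.0, a replicate block and each library left out. The scripts were tested on simulated data. Exon lengths are unions over GENCODE vM21, and coordinates are 1-based on GRCm38. RefSeq promoters matched 9 members, and Cdkn1c had no entry. Pathway genes were named by rule: in each list the 2 of highest mean CPM, the 2 of largest absolute log2 difference and any past the limma threshold, plus, for each member, the 2 pathway genes of the most like profile. Members and lists were chosen with earlier results of these data known.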

Additional observations from a re-analysis of the deposited data

Results flagged for a closer look

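Cdkn1c differed in opposite directions in the 2 pool sizes. IQ3pos minus IQ3neg was −4.39 on the log2(CPM + 1) scale in the pools of 4 mice, against 0.25 in the pools of 3 mice. This difference between the pool sizes was not tested, with 1 library per fraction and size.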

How the results depend on the processing

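Changing the filter or adding the replicate block leaves each member's log2 difference as it was, so these alternatives cannot turn its direction. The direction of the log2 difference was kept in all 16 alternatives for Cdkn1a, Cdkn2b, Cdkn2c, Cdkn2d, Cdkn3, Cdk2, Cdk4 and Cdk6. It turned to −0.14 for Cdkn1b in CPM without the 20 most abundant genes and to 0.32 for Cdkn1c without IQ3pos_1910A (from −4.45 to 0.32 over the libraries left out). Over these alternatives Cdkn2b ranged from 1.37 to 4.52, Cdkn2c from 1.22 to 3.96, Cdkn2d from 0.78 to 2.25, Cdkn3 from 2.53 to 4.08, Cdk2 from 0.76 to 2.35, Cdk4 from 1.26 to 3.46 and Cdk6 from 0.94 to 1.96. The 0 members called as higher became 2 (Cdkn3 and Cdk6) with a pseudocount of 5, with a mean of at least 5 CPM, with edgeR and library size only and with DESeq2, and stayed 0 without any 1 library; 0 were called as lower in every alternative. The 0 pathway genes called as higher became 10 with a pseudocount of 5, 19 with a mean of at least 5 CPM, 2 with edgeR and TMM, 20 with edgeR and library size only and 21 with DESeq2; those called as lower became 1 with edgeR and TMM and 3 with DESeq2. The 8 members above became 5 with DESeq2 factors and 5 without the 20 most abundant genes; the 0 below became 2 with TMM, with DESeq2 factors and without the 20 most abundant genes, and ranged from 0 to 2 with a library left out. The 6 pathway genes below became 12 without the 20 most abundant genes and ranged from 6 to 13 with a library left out. No share of all genes stands beside the order counts without the 20 most abundant genes or with a library left out. An order against a lone library is also easier to reach, so these counts cannot be set against other genes. The median of the p53 targets and of the regulators relative to all genes changed sign between alternatives (−0.20 to 0.51 and −0.24 to 0.74). With a library left out, the log2 ratio differences ranged from −0.63 to 0.33 for the INK4 sum over Cdk4 plus Cdk6, from −1.56 to 0.62 for Cdk6 over Cdk4, from −2.42 to −0.41 for the Cip/Kip sum over Cdk2 and from 1.56 to 2.05 for Cdkn3 over Cdk2. With a library left out, the lone library of its fraction is assumed to vary like the other fraction. The causes were not tested.

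With the replicate block, 3 members (Cdkn3, Cdk4 and Cdk6) and 32 pathway genes were called as higher and 1 pathway gene as lower, beside 9.34% of all genes higher and 0.96% lower. With the block and TMM-scaled CPM together, an alternative chosen after seeing the data, 1 member (Cdkn3), 21 pathway genes higher and 1 lower were called, beside 1.89% and 1.21% of all genes. The labels do not say that a number marks shared mice, and with 2 pairs the deviations of same-numbered libraries correlated at 0.148 across genes, so the block is no more than a description. Among the members, few reads limited only Cdkn2b and Cdkn2c in IQ3neg_1909B and Cdkn1c in IQ3pos_1910A, at 0, 4 and 10 reads. These libraries held 115016307 and 279125309 reads in genes, and the cause of the low values was not tested.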
